A study of Mus musculus with 6 samples.

Results

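The insulin-like growth factor (IGF) axis was described through 10 mouse genes: the ligand Igf1, the receptors Igf1r and Igf2r, and the binding proteins Igfbp1 to Igfbp7. They were chosen by name, and they and the related gene lists were picked with earlier results of these data known. Each of the 10 was read from its only probe set with a single gene symbol, so all had a value among the 19937 named genes. Igf1r is the receptor tyrosine kinase that passes the signal of IGF1 to the insulin receptor substrates and to AKT, a route that supports growth and survival of many lung adenocarcinomas. Igf2r carries no kinase, clears IGF2 from the cell surface and ferries newly made lysosomal enzymes that bear a mannose phosphate tag. The binding proteins are secreted and hold IGFs in the medium and matrix, where they can block the ligands, store them or deliver them. Igfbp7 binds IGFs only weakly.

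The data are 6 Affymetrix expression arrays of A316, a primary mouse adenocarcinoma line that lacks Cebpa on every array. The tested cells were given PTC-209, a compound described by its labels as a Bmi inhibitor, in 0.5% DMSO (3 arrays), and the control cells were given 0.5% DMSO alone (3 arrays). The line is a single line, and the labels name no dose, no exposure time and no separate cultures, so the p-values cover the spread between these arrays alone, which could be technical. Values are the authors' log2 expression levels. Brightness differs between probe sets for reasons other than transcript number, so levels of different genes were not ranked against each other.

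Array medians lay between 4.07 and 4.14, and the median of all tested probe sets, 4.33, is used here as the border under which a gene is called dim. Bmi1 averaged 7.01 ± 0.075 in PTC-209 cells and 7.55 ± 0.14 in DMSO cells (SD, n = 3 each), and Cebpa, at 3.79 and 3.65, was dim in both, a level that does not check the deletion, since the place of its probes relative to the deleted part is not known here. All 10 epithelial markers (Epcam, Cdh1, keratins and others) reached the border, while 7 of 9 alveolar type 2 or club cell markers, 6 of 10 fibroblast markers and 6 of 7 smooth muscle or pericyte markers did not. A gene rose or fell when its limma p-value, after Benjamini-Hochberg adjustment across the 28192 probe sets tested, was under 0.05, which held for 26.6% of the named genes (12.9% higher and 13.7% lower).

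With PTC-209, 2 binding proteins fell, Igfbp7 and Igfbp4, and both receptors rose by smaller amounts, Igf2r and Igf1r. The remaining 6 members, Igf1, Igfbp1, Igfbp2, Igfbp3, Igfbp5 and Igfbp6, were dim in both groups and did not pass the test. The share of members called, 4 of 10, stands beside the 26.6% of all named genes, and the median log2 difference of the members was 0.11 against 0.026 for all named genes. For 5 members, the called 4 and Igfbp2, all arrays of one group lay above all of the other, while the same held for 40.5% of all named genes.

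**Figure D1:**
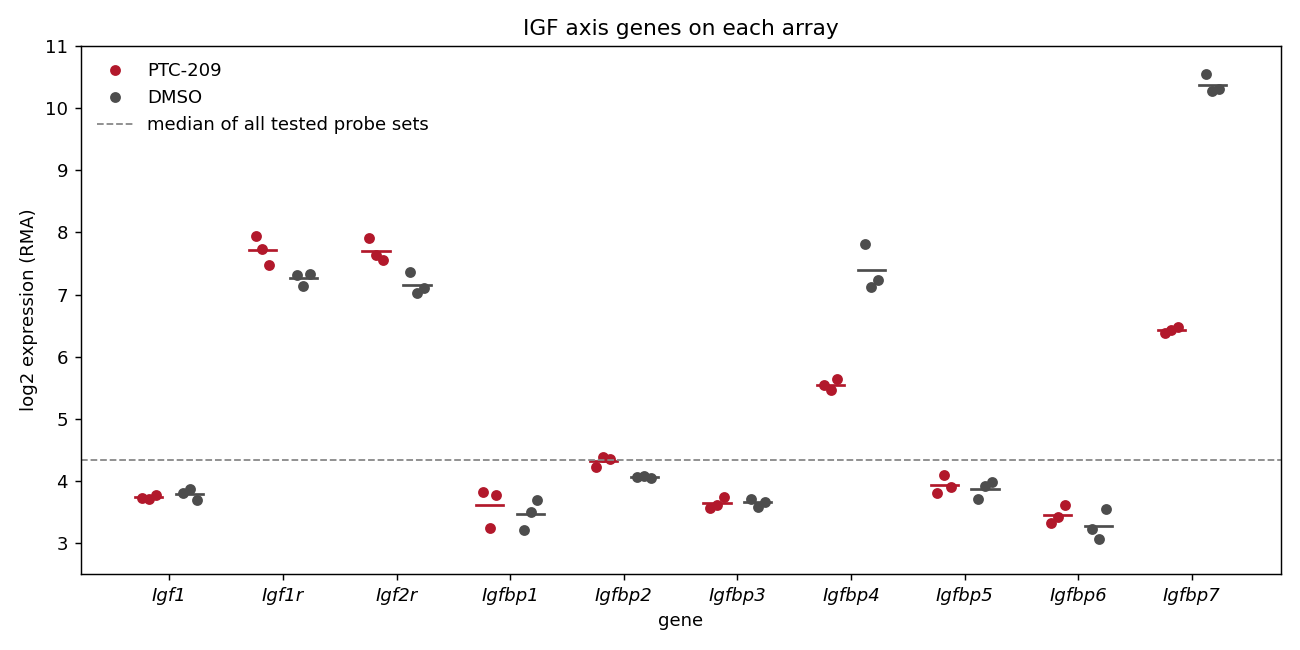
Log2 expression (RMA) of each IGF axis gene, with 1 point per array, PTC-209 left of DMSO, and a bar at the mean of 3 arrays. The dashed line marks the median of all tested probe sets, 4.33. Igfbp7 and Igfbp4 lie lower and Igf1r and Igf2r higher on every PTC-209 array than on any DMSO array, and the other genes lie near or under the line.

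Igfbp7, a secreted matrix protein known for its high level in blood vessel walls and for its silencing in several cancers, had log2 levels of 6.39, 6.44 and 6.48 on the PTC-209 arrays, against 10.54, 10.28 and 10.30 on the DMSO arrays. The groups were far apart, with PTC-209 arrays within 0.1 of each other. The level was 15.3-fold lower in PTC-209 cells (95% confidence interval 13.0 to 18.0, log2 difference -3.94, SE 0.104, limma adjusted p = 8.60e-08). By the absolute size of its change Igfbp7 was number 11 of the 19937 named genes, and in PTC-209 cells it remained above the border of dim genes. In a culture, fewer cells of a type and less RNA per cell cannot be told apart in such a value.

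Igfbp4, which binds both IGFs and releases them when the protease PAPP-A cleaves it, had levels of 5.55, 5.46 and 5.65 with PTC-209, against 7.81, 7.13 and 7.23 with DMSO. DMSO replicate 1 was the highest of the 6 arrays, and the lowest DMSO array still lay above all PTC-209 arrays. The level was 3.58-fold lower in PTC-209 cells (95% confidence interval 2.75 to 4.65, log2 difference -1.84, SE 0.168, limma adjusted p = 4.21e-05). Igfbp4 was number 315 by the size of its change. The log2 differences of Igfbp7 and Igfbp4 stood apart by -2.1 (Igfbp7 minus Igfbp4): within an array, Igfbp7 minus Igfbp4 lay between 0.83 and 0.98 with PTC-209 and between 2.73 and 3.15 with DMSO (two-sided exact permutation p = 0.1, the smallest that 3 against 3 arrays allow, here and in the 2 other gene pairs tested in this way).

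Because Igfbp7 is abundant in endothelial cells and both falling genes are made by stromal cells, markers of such cells were read beside them. Of 10 endothelial markers 1 fell, Cdh5, at 8.15 with PTC-209 and 9.48 with DMSO, 0 rose, and 8 were dim in both groups, among them Pecam1 (3.51 and 3.39) and Kdr (3.10 and 2.80). The summed linear level of the endothelial list was 375 to 445 on PTC-209 arrays and 813 to 863 on DMSO arrays. Cdh5 alone made this gap, since the other 9 summed to 122 to 132 with PTC-209 and 121 to 124 with DMSO. Of 10 fibroblast markers 0 changed (limma, 1 with an unadjusted p under 0.05), with sums of 158 to 165 with PTC-209 and 144 to 155 with DMSO. Of 7 smooth muscle or pericyte markers 0 changed, with sums of 102 to 115 with PTC-209 and 102 to 112 with DMSO. Of 4 mesothelial markers 1 fell, Msln (8.15 and 9.42), with Lrrn4 dim in both groups, and the sums were 342 to 352 with PTC-209 and 701 to 832 with DMSO, a gap made by Msln alone (the other 3 summed to 54.4 to 68.8 with PTC-209 and 55.2 to 63.1 with DMSO). Of 10 epithelial markers 2 rose and 6 fell, and their sum was 5308 to 6016 with PTC-209 and 9196 to 10280 with DMSO. Beside these marker counts, 12.9% of all named genes rose and 13.7% fell, and of those not dim 21.9% and 23.5%. Among 9 measured leukocyte markers Cd68, a lysosomal protein, rose (10.03 and 7.42), and Cd14 fell (5.88 and 6.76), while Ptprc (3.06 and 3.17) and Csf1r (3.57 and 3.46) were dim, and the sums were 1155 to 1214 with PTC-209 and 347 to 374 with DMSO. Without Cd68, which carried the higher sum, the other 8 summed to 139.7 to 141.8 with PTC-209 and 171 to 203 with DMSO. The part of these marker shifts in the falls of Igfbp7 and Igfbp4 was not tested.

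Igf1r, the signalling receptor, had levels of 7.95, 7.73 and 7.48 with PTC-209, against 7.32, 7.13 and 7.34 with DMSO. The lowest PTC-209 array lay only just above the highest DMSO array. The level was 1.37-fold higher in PTC-209 cells (95% confidence interval 1.12 to 1.69, log2 difference 0.46, SE 0.131, limma adjusted p = 0.0302). This call ended without PTC-209 replicate 1 (log2 difference 0.34, adjusted p = 0.101), PTC-209 replicate 2 (0.087), DMSO replicate 2 (0.106) or DMSO replicate 3 (0.0544). The call also ended when control probes were kept in the fit and its adjustment (0.0661) and when a fold change above 1.2 was required (0.428). Over all alternatives the limma adjusted p ran from 0.0119 to 0.428.

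Igf2r, the mannose phosphate receptor, had levels of 7.91, 7.63 and 7.56 with PTC-209, against 7.36, 7.02 and 7.10 with DMSO. Replicate 1 was the highest array in both groups, and the groups did not overlap. The level was 1.45-fold higher in PTC-209 cells (95% confidence interval 1.19 to 1.78, log2 difference 0.54, SE 0.130, limma adjusted p = 0.0136). The call ended without PTC-209 replicate 1 (adjusted p = 0.0501) or DMSO replicate 2 (0.0548) and when a fold change above 1.2 was required (0.191; 0.00394 to 0.191 over all alternatives). The rises of Igf2r and Igf1r differed by 0.081 on the log2 scale, which was not beyond the spread between arrays (two-sided exact permutation p = 0.4).

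**Figure D2:**
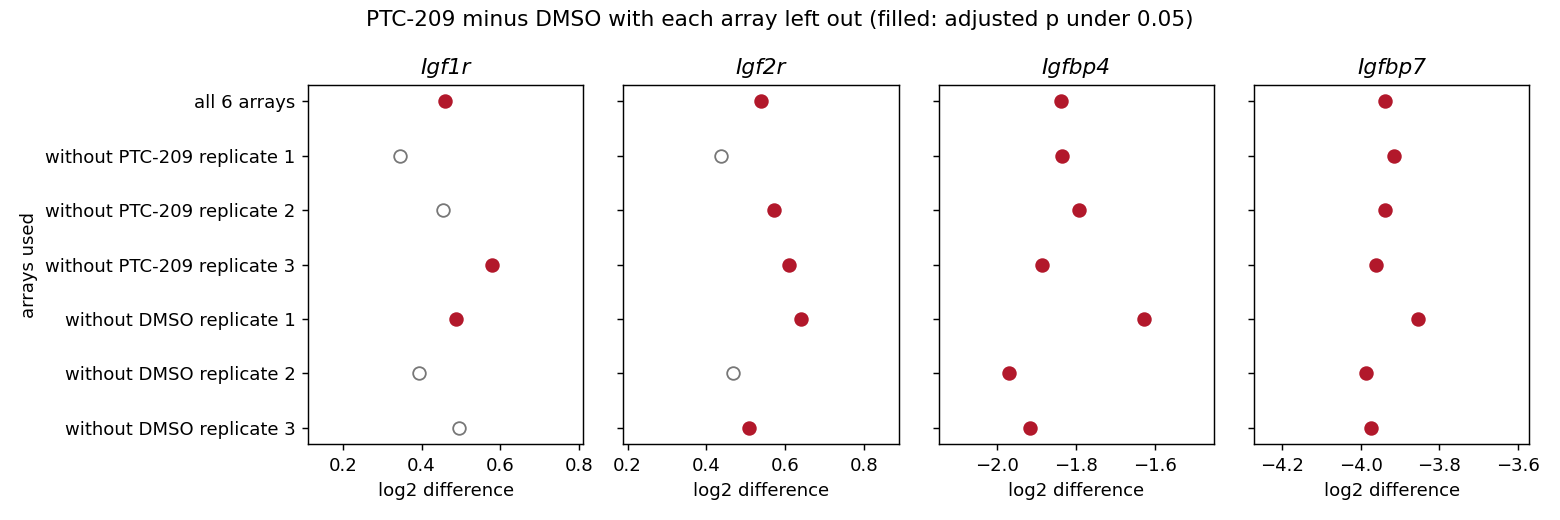
Log2 difference, PTC-209 minus DMSO, for the 4 called members with all 6 arrays and with each array left out in turn. Filled points have an adjusted p under 0.05 and open points do not, and every panel spans the same width on its x axis. Igfbp4 and Igfbp7 stayed called in all 6, Igf2r in 4 and Igf1r in 2.

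The insulin receptor, Insr, the closest relative of Igf1r and able to pair with it in hybrid receptors, did not pass the test by its brighter probe set, at 8.39, 8.34 and 8.03 with PTC-209, against 7.99, 8.11 and 8.18 with DMSO (log2 difference 0.16, limma adjusted p = 0.431). Its second probe set did pass, at 7.19 with PTC-209 and 6.82 with DMSO (0.36, limma adjusted p = 0.0295). Both pointed up, and only the dimmer was called. By the brighter Insr probe set, Igf1r minus Insr lay between -0.61 and -0.44 on PTC-209 arrays and between -0.98 and -0.67 on DMSO arrays, a difference of 0.30 (two-sided exact permutation p = 0.1). By the other, an alternative chosen after seeing the data, the difference was 0.097 (two-sided exact permutation p = 0.6), so a larger rise of Igf1r than of Insr was not shown.

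The ligand Igf1, made mostly by liver and by stromal cells, was dim at 3.73, 3.71 and 3.77 with PTC-209, against 3.80, 3.87 and 3.70 with DMSO. The groups overlapped, and the interval of the log2 difference ran from -0.26 to 0.16 (limma adjusted p = 0.77). The second ligand, Igf2, a growth factor of the embryo, was dim as well, at 3.78, 3.68 and 3.76 with PTC-209, against 3.66, 3.58 and 3.87 with DMSO (adjusted p = 0.861). Of the 7 measured genes on the list of other ligands and insulin receptors 0 rose and 0 fell (limma, 0 with an unadjusted p under 0.05). The count took Insr by its brighter probe set, and 5 of the 7 were dim in both groups. Of all named genes 12.9% rose and 13.7% fell, and of those that were not dim 21.9% and 23.5%. Besides Igf2 and Insr the 7 genes were Ins2, an insulin gene (4.66 with PTC-209 and 4.67 with DMSO), Insl6 (2.87 and 3.06), the orphan receptor Insrr (3.40 and 3.55) and the relaxin family receptors Rxfp1 (2.66 and 2.64) and Rxfp2 (2.47 and 2.53).

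Igfbp2, which binds IGF2 with preference and is often high in tumours, came closest to a call among the dim members. Its levels were 4.22, 4.38 and 4.36 with PTC-209, against 4.07, 4.08 and 4.05 with DMSO, and the groups did not overlap. The log2 difference was 0.26 (95% confidence interval 0.049 to 0.47, unadjusted p = 0.0208, limma adjusted p = 0.0783). Weighting the arrays by their quality took it past the threshold (adjusted p = 0.0445; 0.0445 to 1 over the alternatives). In both groups its mean stayed under 4.33.

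Igfbp1, the liver binding protein that insulin represses and cell stress induces, had the widest spread of all members between PTC-209 arrays (SD 0.32). Its levels were 3.83, 3.25 and 3.78 with PTC-209, against 3.21, 3.50 and 3.69 with DMSO (log2 difference 0.15, interval -0.24 to 0.55, limma adjusted p = 0.623). Igfbp3, the main carrier of IGFs in blood and a target of p53, had 3.56, 3.61 and 3.74 with PTC-209, against 3.72, 3.58 and 3.67 with DMSO (-0.019, interval -0.24 to 0.20, adjusted p = 0.93). Igfbp1 and Igfbp3 are direct neighbours on mouse chromosome 11, transcribed towards each other, with no other gene starting between them, and the groups overlapped for both.

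Igfbp5, a binding protein that attaches to matrix, had levels of 3.81, 4.09 and 3.91 with PTC-209, against 3.71, 3.93 and 3.99 with DMSO (log2 difference 0.063, interval -0.20 to 0.32, limma adjusted p = 0.782). It is the direct neighbour of Igfbp2 on chromosome 1 in the same opposed arrangement. Igfbp6, which prefers IGF2 as its ligand, had 3.32, 3.41 and 3.62 with PTC-209, against 3.22, 3.06 and 3.55 with DMSO (0.17, interval -0.14 to 0.49, adjusted p = 0.469). The intervals of these dim members describe array signal, and no background level was measured here that would separate a low transcript from none.

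**Figure D3:**
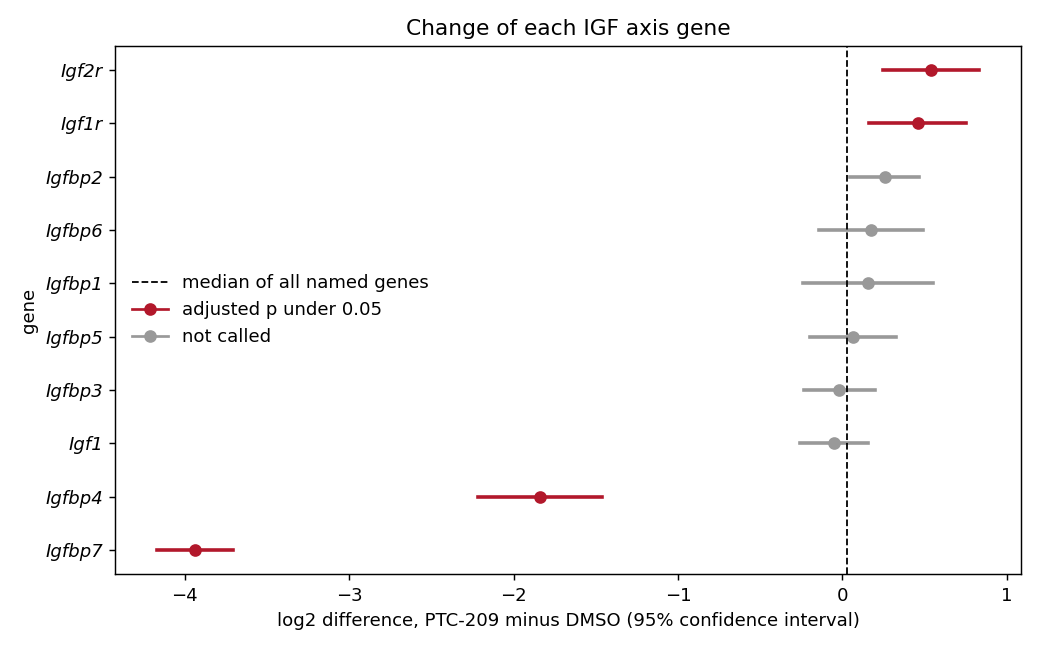
Log2 difference, PTC-209 minus DMSO, of each IGF axis gene with its 95% confidence interval, coloured where the adjusted p is under 0.05. The dashed line is the median of all named genes, 0.026. Igfbp7 (-3.94) and Igfbp4 (-1.84) stand far to the left, and the intervals of the 2 receptors overlap each other.

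The 250 bases before the start site of the 4 called members are shown because these genes moved in opposite directions. They are RefSeq sequences on mouse build GRCm38.p6, read 5′ to 3′ on the strand of the gene, at chr5:77408046-77408295 on the minus strand for Igfbp7, chr11:99040994-99041243 on the plus strand for Igfbp4, chr7:67952007-67952256 on the plus strand for Igf1r and chr17:12769707-12769956 on the minus strand for Igf2r. Capitals mark 3 motifs on either strand, the E-box CACGTG, the GC box GGGCGG and the TATA motif TATAAA.
Igfbp7: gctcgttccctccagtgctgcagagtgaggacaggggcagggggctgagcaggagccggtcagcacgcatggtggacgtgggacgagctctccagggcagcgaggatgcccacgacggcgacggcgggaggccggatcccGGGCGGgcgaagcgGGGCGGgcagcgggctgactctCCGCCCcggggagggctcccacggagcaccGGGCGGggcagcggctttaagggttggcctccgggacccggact
Igfbp4: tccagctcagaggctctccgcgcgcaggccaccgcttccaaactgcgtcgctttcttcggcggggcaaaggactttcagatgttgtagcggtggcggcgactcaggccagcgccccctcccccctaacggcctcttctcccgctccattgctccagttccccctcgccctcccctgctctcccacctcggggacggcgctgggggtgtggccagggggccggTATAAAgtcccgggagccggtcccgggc
Igf1r: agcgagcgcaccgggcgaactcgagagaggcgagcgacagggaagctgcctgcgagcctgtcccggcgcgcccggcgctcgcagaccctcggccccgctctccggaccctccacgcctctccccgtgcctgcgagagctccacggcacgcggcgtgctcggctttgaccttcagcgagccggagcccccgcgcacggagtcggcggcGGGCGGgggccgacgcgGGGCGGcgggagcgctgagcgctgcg
Igf2r: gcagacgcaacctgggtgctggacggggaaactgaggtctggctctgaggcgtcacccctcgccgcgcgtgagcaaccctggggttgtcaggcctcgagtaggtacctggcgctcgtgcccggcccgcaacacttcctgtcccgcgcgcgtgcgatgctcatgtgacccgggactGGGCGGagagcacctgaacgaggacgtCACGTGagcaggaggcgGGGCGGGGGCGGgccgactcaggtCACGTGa

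Both receptor promoters and that of Igfbp7 held GC boxes, 2 in Igf1r, 3 in Igf2r and 4 in Igfbp7, a motif found in 32.9% of 27025 promoters of the same length (the first listed for each gene). That of Igfbp4 held none and had a TATAAA starting 28 bases before the start site, a motif in 13% of promoters. The Igf2r window held CACGTG at 48 and at 7 bases before the start, both within GTCACGTG, the core of the element bound by the lysosomal regulator TFEB. CACGTG occurred in 6.05% of all promoters and GTCACGTG, which contains it, in 1.89%. Among the other members, CACGTG and GGGCGG occurred in Igfbp2, TATAAA occurred in Igfbp6, and CAAAACA, the core of the insulin response element, occurred in Igfbp1 and in 5.55% of promoters. The FOXO motif GTAAACA and the ATF4 motif TGATGNAA occurred in 0 of the 10 members and in 3.09% and 3.53% of all promoters. The promoters of the called members were rich in G and C, at 69.2% to 77.6%, and the median of all promoters was 52%. This was not particular to the called members, since the uncalled Igfbp3 had 73.2% and Igfbp2 67.2%. The remaining members, Igf1, Igfbp1, Igfbp5 and Igfbp6, had 49.6% to 58.8%. These matches are a description of letters, the motifs were chosen after the sequences were seen, and no binding was measured.

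The genes whose 6 array values, centred on their own mean, lay nearest to those of Igfbp7 among the 19936 other named genes were Cldn2, a claudin of leaky tight junctions, Kif15, a mitotic kinesin, and Cp, ceruloplasmin. Their distances, summed over 6 arrays as the root of squared log2 deviations, were 0.27, 0.363 and 0.415. Their log2 differences were -3.88, -3.71 and -3.69, beside -3.94 for Igfbp7. The nearest to Igf2r were Nop2, a ribosomal RNA methyltransferase, Rhbdf2, an inactive rhomboid protein, and Wipi1, an autophagy protein, at distances of 0.0854, 0.0858 and 0.086. The log2 differences of these 3 genes were 0.54, 0.54 and 0.55, beside 0.54 for Igf2r. With 2 groups of 3 arrays, such a distance depends largely on the size of the change, and shared regulation was not tested.

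Downstream of the receptors, Irs2, the substrate that couples insulin and IGF receptors to PI3K, rose. Its levels were 6.10, 6.29 and 5.91 with PTC-209, against 4.87, 5.01 and 4.82 with DMSO, a 2.30-fold higher level (limma adjusted p = 6.35e-05). Of 27 measured genes of receptor signalling, 24 of them not dim, 10 rose and 3 fell, where 21.9% of all not dim named genes rose and 23.5% fell, with a median log2 difference of 0.082. Foxo3, a transcription factor that AKT holds inactive, was 1.92-fold higher, Tsc1, a brake on mTOR, 1.95-fold higher and the kinase Gsk3b 1.78-fold higher. Akt1, an AKT kinase gene, was 1.45-fold lower, the PI3K subunit Pik3cb 1.42-fold lower and the exchange factor Sos1 1.37-fold lower. These 3 calls ended when a fold change above 1.2 was required, as did 5 of the 10 rises. The relatives of Akt1 and Sos1 moved the other way. Akt2 was 1.43-fold higher (limma adjusted p = 0.00451) and Sos2 1.55-fold higher (limma adjusted p = 0.000647).

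Among 13 proteases and partners of the binding proteins, 6 of them dim in both groups, 4 rose and 3 fell. Of all named genes 12.9% rose and 13.7% fell, and of those that were not dim 21.9% and 23.5%. Stc2, a glycoprotein that blocks PAPP-A and so protects Igfbp4 from cleavage, had levels of 6.36, 6.10 and 6.33 with PTC-209, against 4.37, 4.43 and 4.21 with DMSO, a 3.82-fold higher level (limma adjusted p = 2.19e-06). Stc1, which blocks the same protease, was 1.71-fold lower (adjusted p = 0.00778). The protease gene Pappa was dim, at 3.55 with PTC-209 and 3.38 with DMSO, and did not pass (adjusted p = 0.388). Its relative Pappa2 rose by 1 dim probe set (4.25 and 3.83), while its other 2 probe sets did not pass (adjusted p = 0.877 and 0.573), and the call ended without PTC-209 replicate 1 or 3 or DMSO replicate 2. Adam12, a protease that cuts Igfbp3 and Igfbp5, fell to 3.46, 3.69 and 3.78 with PTC-209, against 6.10, 6.13 and 6.18 with DMSO (adjusted p = 5.97e-07). The protease genes Adam9 (0.46 on the log2 scale) and Ctsd (0.44) rose, and the plasminogen activator Plat fell by 0.55. The calls of Stc1, Pappa2, Adam9, Ctsd and Plat ended when a fold change above 1.2 was required.

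Igfbp7 shares its amino-terminal domain type with the CCN proteins, HTRA proteases and others. Of 13 such relatives, 6 of them dim in both groups, 4 fell and 1 rose, with a median log2 difference of -0.099. These counts stand beside the 13.7% of all named genes that fell and the 12.9% that rose, or 23.5% and 21.9% of those not dim. Ccn2, connective tissue growth factor, had levels of 6.30, 5.88 and 6.07 with PTC-209, against 9.51, 9.09 and 8.89 with DMSO, an 8.46-fold lower level (limma adjusted p = 1.74e-06). Htra1 was 2.53-fold lower and Ccn1 1.89-fold lower. Crim1 (-0.48 on the log2 scale, adjusted p = 0.0308) and the dim Esm1 (0.32, adjusted p = 0.0415) also passed, but Crim1 failed under 6 of 16 alternatives and Esm1 under 9 of 15.

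Of 13 measured genes of mannose phosphate sorting, in which Igf2r works, 7 rose and 0 fell, with a median log2 difference of 0.37. None of the 13 was dim, and of all named genes that were not dim 21.9% rose and 23.5% fell. The largest rise was that of Plin3, a lipid droplet protein also described as a carrier of mannose phosphate receptors, at 7.59, 7.52 and 7.51 with PTC-209, against 6.27, 6.20 and 5.98 with DMSO (2.62-fold higher, limma adjusted p = 1.15e-05). The adaptor Gga2 was 1.66-fold higher, and Vps26a and Vps35, subunits of the retromer that returns the receptor from endosomes, were each 1.58-fold higher.

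Of 7 measured genes of the growth hormone axis, which drives Igf1 in the liver, 1 rose and 2 fell. None of the 7 was dim, and of all not dim named genes 21.9% rose and 23.5% fell. The growth hormone receptor Ghr had 7.76, 7.74 and 7.55 with PTC-209, against 8.72, 8.93 and 8.84 with DMSO (2.21-fold lower, limma adjusted p = 4.21e-05). Socs2, a feedback inhibitor, was 1.80-fold higher, and Jak2, the receptor's kinase, fell by 0.31 on the log2 scale (adjusted p = 0.0415), a call lost under 10 of 16 alternatives, each left-out array included. Of 18 genes listed as FOXO targets 9 rose and 1 fell (16 of the 18 were not dim), with a median log2 difference of 0.39, and 5 rises were left when a fold change above 1.2 was required. These counts stand beside the 21.9% of not dim genes that rose and the 23.5% that fell. Irs2 as above, Gadd45a (10.7-fold), Txnip (2.70-fold) and Ccng2 (2.40-fold) rose most, and Sesn3 was 2.78-fold lower. Igfbp1, itself a textbook FOXO target, was not counted in that list.

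**Figure D4:**
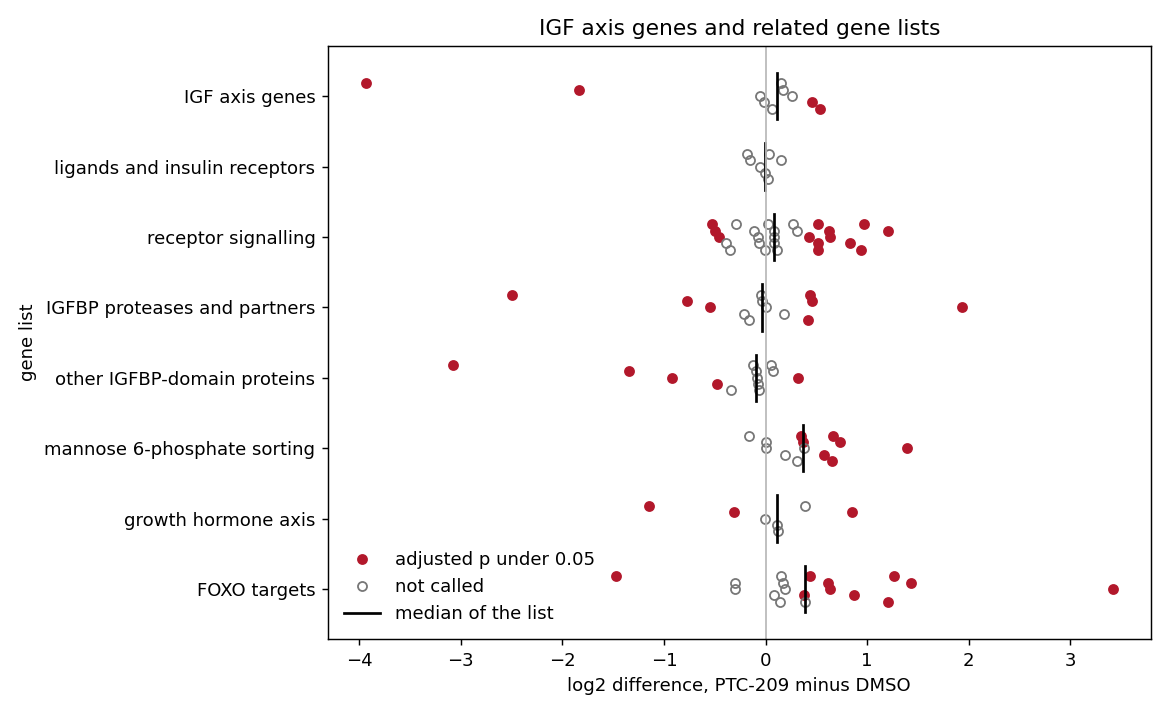
Log2 difference, PTC-209 minus DMSO, of each measured gene of the IGF axis and of 7 related lists. Filled points have an adjusted p under 0.05, and black bars are list medians, which lay between -0.099 for other IGFBP-domain proteins and 0.39 for FOXO targets. Igfbp7 at -3.94 and Gadd45a at 3.42 are the outermost points.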

How the data were processed

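The authors deposited log2 expression values of 34760 probe sets on each of 6 arrays, made with RMA per the submitters' processing notes (version not given in the sources used here). RMA gives arrays nearly equal distributions, so a change common to most genes would be hidden. A block of 6568 control probe sets was left out. Probe sets with 1 symbol in the platform annotation gave 19937 named genes, each read from its probe set with the highest mean. Groups and replicate numbers came from the titles.

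All 28192 remaining probe sets were fitted with limma 3.58.1 in R 4.3.3 (treatment as the only term, eBayes), with Benjamini-Hochberg adjustment. The fit was tested on simulated data. Figures used matplotlib 3.10.9. Arrays correlated at 0.992 to 0.996 within a group and at 0.97 to 0.974 between groups, and 3 arrays per group limit the precision.

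Members and gene lists were chosen with earlier results of these data known. Named were all 10 members and, of each other list, up to 4 genes per direction past the threshold by size, plus all measured ligands and insulin receptors. For the most raised and most lowered member, the 3 genes nearest in pattern were named, and Pappa, Akt2 and Sos2, like the cell type markers, outside that rule. Same-numbered replicates did not qualify as pairs, since their deviations correlated at 0.231, 0.07 and 0.073. Alternatives numbered 16: priors, dim probe sets left out, scalings, array weights, replicate block, minimum fold change, control probes, mean of probe sets and each array left out. A second Insr probe set and marker sums without their largest gene were added after seeing the data. Sequences came from RefSeq tables.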

Additional observations from a re-analysis of the deposited data

How the results depend on the processing

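The 2 falls, of Igfbp7 and Igfbp4, held under all 16 alternatives, with log2 differences of -4.01 to -3.85 and -1.97 to -1.63. The count of rising members was 0 when a fold change above 1.2 was required, 1 with control probes kept, and 0 to 2 when single arrays were left out (0 without PTC-209 replicate 1 or DMSO replicate 2, 1 without PTC-209 replicate 2 or DMSO replicate 3). With the replicate number as a block, the members' counts were the same, 2 and 2, and the replicate block gave the growth hormone axis 2 rises and 1 fall and other IGFBP-domain proteins 0 rises. Requiring a fold change above 1.2 left 2880 of 5306 named genes, 5 rises among FOXO targets, 5 rises and 0 falls in receptor signalling, 1 rise and 1 fall among proteases and partners, 1 fall in the growth hormone axis and 0 rises among other IGFBP-domain proteins. FOXO targets had 2 falls with a trended and robust prior, dim probe sets left out, repeated quantile normalization, cyclic loess or the mean of all probe sets. The growth hormone axis had 1 fall after median centring, with control probes kept and whichever single array was left out. Other IGFBP-domain proteins had 0 rises without dim probe sets, after median centring, with control probes kept, and 0 to 1 without single arrays. The Igf1r minus Insr difference was 0.097 by the second Insr probe set. Uncalled genes changed sign: leaving out single arrays gave Igfbp3 -0.071 to 0.019, Igfbp5 -0.020 to 0.13, Igf2 -0.023 to 0.12, Ins2 -0.068 to 0.028 and Rxfp1 -0.075 to 0.14, and Rxfp1 was -0.0015 with cyclic loess and -0.034 with array weights. Across the 37 other genes named by the rule above, 37 values lost their call, 9 changed sign and 539 kept side and direction. Stricter settings test fewer arrays or a larger change, and the cause of the other shifts was not tested. Low signal limits the 6 dim members, and the background was not measured.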
